A study of Mus musculus with 19 samples.

Results

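The comparison of treated with non-treated FDCPmix cells rests on 4 of the 19 arrays of the series, those whose own RNA is labelled as treated FDCPmix cells with no hour stated and whose second channel held RNA of non-treated cells. They were chosen by these channel labels alone. The own RNA was in Cy5 on replicates 1 and 2 and in Cy3 on replicates 3 and 4, so each dye orientation has 2 arrays. The other 15 arrays set cells at 3 h (4 arrays), 7 h (4), 12 h (4) and 23 h (3) after tamoxifen against cells at 0 h. The labels name neither the agent nor the duration for the treated group. Tamoxifen is given in the design for the time course. FDCPmix is a mouse haematopoietic progenitor line that needs interleukin-3 to survive and can form several blood lineages, and tamoxifen is a ligand of the oestrogen receptor. The array titles also carry the words ES cell line, and the protocols speak of organs and of pooled control animals. Neither is explained in the sources used here. Nothing says whether the 4 arrays came from separate cultures or from extracts labelled again with the dyes swapped. The p-values therefore measure the spread between arrays, which may be technical.

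Each value is a deposited log ratio, read here as the log2 ratio of treated over non-treated RNA after each array was centred on its median. Treated RNA as the numerator is likely from the order of the channels and the wording of the design, but it is not stated, and neither is the base of the logarithm. If the non-treated RNA is the numerator, every sign below turns. The signs were used as deposited, and results that turn when the signs of the Cy3 arrays are changed are given as such. On the treated arrays a single extreme value, 16.83, 16.75, -16.58 and -16.34 for replicates 1 to 4, recurred on 29, 18, 17 and 27 spots and was set to missing. Before that step, between 19658 and 19841 of 20205 probes had a value.

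The treated arrays were more scattered than the time course. Over the spots of an array the ratios had an SD between 0.619 and 0.642, while the time-course arrays ran between 0.235 and 0.360. The median SD of a feature between the treated arrays was 0.297, against 0.149, 0.162, 0.152 and 0.152 at 3 h, 7 h, 12 h and 23 h. Treated arrays of the same dye orientation had Spearman correlations over probes of 0.119 (replicates 1 and 2) and 0.171 (replicates 3 and 4). Those of opposite orientation had values between -0.106 and 0.0331. Large ratios, over 2 in size, followed the dye as well: 35.7% and 17.99% of them were positive on replicates 1 and 2 and 82.8% and 78.1% on replicates 3 and 4. At most 0.109% of probes had identical values on a pair of treated arrays.

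Judged against the spread of these 4 arrays, no feature passed. Limma called 0 of 15915 features (0.00%) at an adjusted p of 0.05, and 831 features (5.22%) had an unadjusted p under 0.05, 415 higher (2.61%) and 416 lower (2.61%). The smallest adjusted p was 0.195. Among the 15168 features with values on all 4 arrays, 2134 (14.1%) lay on 1 side of 0 on every array. Of these, 983 (6.48% of the features) lay above and 1151 (7.59%) below. More features, 2514 (16.6%), had opposite signs in the dye orientations. The mean ratio reached 1 or more for 149 features and -1 or less for 95. The values that follow describe genes by their position on each array, with nothing said to have passed a test in this comparison.

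The gene closest to the threshold was Selenbp2, a selenium-binding protein, with -1.44, -1.45, -1.47 and -1.57 on replicates 1 to 4. Its mean was -1.48 ± 0.061 (SD, n = 4), which is 0.358 times the non-treated level if the base is 2 (limma adjusted p = 0.195). An SD this small or smaller was seen in 1.58% of features. Its near-identical paralog Selenbp1 had -0.75, -0.82, -1.61 and -1.31, and the probes may not tell the 2 genes apart. Both orientations were low for Selenbp2, whereas Selenbp1 was lower on the Cy3 arrays.

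The 15 named genes that lay lowest on every array were ranked by the array nearest to 0. They included 5 from the lists of hypoxia response and glycolysis, against 0 of the 15 highest. These lists hold 17 and 19 of the 15915 features tested and were chosen with earlier results of these data known. When oxygen is short, the hypoxia-inducible factors escape degradation and switch on genes for glucose uptake, glycolysis, mitochondrial turnover and blood vessel growth through a short DNA motif in their promoters and enhancers. Bnip3, a mitochondrial protein that promotes mitophagy, had -0.94, -1.18, -1.97 and -1.43, a mean of -1.38 ± 0.442 (SD, n = 4; limma adjusted p = 0.906). All 4 arrays were low, replicate 3 most. Ndrg1, a stress-responsive gene, had -0.64, -1.13, -1.49 and -1.52. Ero1a, the oxidase that forms disulphide bonds in the endoplasmic reticulum, had -0.94, -0.86, -1.11 and -0.79. Fam162a, a mitochondrial protein made under hypoxia, had -0.73, -0.61, -0.85 and -0.73. The dye orientations overlapped for Ero1a and Fam162a, while Bnip3 and Ndrg1 were lower on both Cy3 arrays. Egln1, the prolyl hydroxylase that marks hypoxia-inducible factors for degradation, had -0.70, -0.62, -0.80 and -0.77. It too was lower on both Cy3 arrays. Limma's adjusted p was 0.906 for Ndrg1, Ero1a, Fam162a and Egln1.

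The promoters of 4 of these genes and of 2 low glycolysis genes are shown because the core letters ACGTG of the hypoxia response motif lie in them. Each is the 250 bases before the gene's start in RefSeq (GRCm38.p6), read 5′ to 3′ on the gene's strand. Capitals mark ACGTG on either strand, so CACGT is the same motif on the other strand, and CACGTG in Bnip3 is 1 place that counts on both.
Bnip3 (chr7:138909507-138909756, minus strand): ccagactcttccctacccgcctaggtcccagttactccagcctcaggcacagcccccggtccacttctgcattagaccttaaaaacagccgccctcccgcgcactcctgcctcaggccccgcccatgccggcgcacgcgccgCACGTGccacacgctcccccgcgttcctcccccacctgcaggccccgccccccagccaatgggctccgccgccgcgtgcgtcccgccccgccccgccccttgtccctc
Ero1a (chr14:45318573-45318822, minus strand): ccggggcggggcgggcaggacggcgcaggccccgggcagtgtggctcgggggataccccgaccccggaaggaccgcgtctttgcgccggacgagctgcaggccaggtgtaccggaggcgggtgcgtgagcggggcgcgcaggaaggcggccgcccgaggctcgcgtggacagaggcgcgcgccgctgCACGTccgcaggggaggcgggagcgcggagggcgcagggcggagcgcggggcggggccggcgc
Fam162a (chr16:36071562-36071811, minus strand): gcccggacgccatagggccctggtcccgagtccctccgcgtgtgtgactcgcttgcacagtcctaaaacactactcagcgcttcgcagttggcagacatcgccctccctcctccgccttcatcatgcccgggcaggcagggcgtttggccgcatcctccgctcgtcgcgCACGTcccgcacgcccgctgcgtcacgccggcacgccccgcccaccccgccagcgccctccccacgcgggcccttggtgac
Egln1 (chr8:124949255-124949504, minus strand): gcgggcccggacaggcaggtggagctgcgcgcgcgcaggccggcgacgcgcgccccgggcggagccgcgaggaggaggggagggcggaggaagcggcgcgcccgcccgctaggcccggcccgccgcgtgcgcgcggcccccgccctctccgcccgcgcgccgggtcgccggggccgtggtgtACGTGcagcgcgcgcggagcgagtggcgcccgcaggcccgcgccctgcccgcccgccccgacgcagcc
Hk2 (chr6:82774455-82774704, minus strand): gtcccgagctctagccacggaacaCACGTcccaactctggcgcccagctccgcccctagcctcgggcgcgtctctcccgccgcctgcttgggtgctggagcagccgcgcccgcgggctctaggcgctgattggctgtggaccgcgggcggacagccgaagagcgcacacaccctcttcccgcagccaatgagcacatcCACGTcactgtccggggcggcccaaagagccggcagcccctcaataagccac
Pgam1 (chr19:41911621-41911870, plus strand): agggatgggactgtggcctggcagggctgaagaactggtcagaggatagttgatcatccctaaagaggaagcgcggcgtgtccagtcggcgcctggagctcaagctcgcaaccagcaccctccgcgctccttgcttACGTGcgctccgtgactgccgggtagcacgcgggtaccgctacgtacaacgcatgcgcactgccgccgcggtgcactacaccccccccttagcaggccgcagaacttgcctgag
The motif nearest the start ended 103 bases before it in Bnip3, 59 in Ero1a, 77 in Fam162a, 64 in Egln1, 48 in Hk2 and 110 in Pgam1. Of the 21 genes of both lists that lay below 0 on all 4 arrays, 18 had a promoter in the table, and 12 of these (66.7%) held ACGTG, against 24.2% of 7859 tested genes. Among the other members of both lists 9 of 14 (64.3%) held it. The shares of the low members and of the remaining members were thus close. The motif stood in 9 of 13 of the lowest genes and 3 of 9 of the highest. Counted by start site, since some genes have several, 53.85% of 26 sites of the low members held it, against 20.61% of the sites of tested genes and 16.57% of all 32851 sites. The start sites were also counted for GCGTG, another form of the core. It stood in 53.85% of the sites of the low members and 42.31% of the sites of tested genes. Either form stood in 76.92% and 53% of these sites. A match is a description of letters only.

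In the list of hypoxia response genes outside glycolysis, 10 of 16 members with 4 values lay below 0 on all 4 arrays and 1 above, where 7.59% and 6.48% of all features did. Limma called 0 of the 17 tested. The median of the members' means was -0.29, and the medians on the arrays were -0.53, -0.20, -0.25 and -0.24. Besides the genes above, Vegfa, the growth factor of blood vessels, had -0.73, -0.26, -0.23 and -0.79. Ddit4, an inhibitor of mTOR signalling, had -0.66, -0.074, -0.49 and -0.87. Replicate 2 was thus close to 0 for Ddit4. Bhlhe40, a transcription repressor, averaged -0.24 ± 0.138 and Plin2, a coat protein of lipid droplets, -0.20 ± 0.070 (SD, n = 4 each). The member above 0 was Egln3, another prolyl hydroxylase, with 0.20, 0.81, 0.010 and 0.18. Hif1a, the oxygen-sensitive subunit itself, had 0.18, 0.61, -0.021 and -0.097. Bnip3l, the relative of Bnip3, had -0.43, -0.75, -0.17 and 0.20, so the arrays did not keep to 1 side for either gene.

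Glycolysis converts glucose to pyruvate in the cytosol, and its genes formed the list with the lowest median, -0.38, with array medians of -0.28, -0.23, -0.40 and -0.39. Of 18 members with 4 values, 11 lay below 0 on every array and 0 above, beside 7.59% and 6.48% of features. Limma called 0 of 19, and 10 had an unadjusted p under 0.05, all with a mean below 0. At the entry to the pathway, the glucose transporter Slc2a3 had -0.97, -0.47, -1.14 and -1.34. Hexokinase Hk2, which traps glucose in the cell, had -0.78, -0.30, -1.08 and -0.69, and its relative Hk1 had -0.25, -0.57, -0.35 and -0.24. The hexokinases were low in both orientations. Pgm1, a phosphoglucomutase that links glycogen and glucose phosphate, had -0.31, -0.33, -1.01 and -1.04. Gys1, the glycogen synthase of most tissues and 1 of the lowest genes, had a like split by dye with -0.65, -0.63, -1.11 and -1.14.

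Further down the pathway, Pfkm, the muscle form of phosphofructokinase, had -0.22, -0.23, -0.23 and -0.27. Its relatives Pfkl and Pfkp did not keep to 1 side: Pfkl ran between -1.26 and 0.69 and Pfkp between -1.13 and 0.38. The triosephosphate isomerase Tpi1 had -0.39, -0.073, -0.72 and -0.39. The dehydrogenase Gapdh had -0.48, -0.23, -0.45 and -0.45, and the mutase Pgam1 had -0.21, -0.38, -0.57 and -0.64. Enolase Eno3 had -0.53, -0.79, -0.40 and -0.40 and the pyruvate kinase Pkm -0.28, -0.17, -0.41 and -0.60. The aldolase Aldoc, the enolase Eno2 and Pgm2 did not keep to 1 side either, with means of 0.10, -0.11 and -0.38. Aldoa, below 0 on all 4 arrays, came close to 0 on replicate 2 with -0.0073. Members beyond pyruvate were not low throughout either. The lactate exporter Slc16a3 had -0.15, -0.19, 0.37 and 1.46, and Slc16a1 averaged 0.045 ± 0.081 (SD, n = 4). Leaving out 1 array at a time left 11 to 13 members below 0 on all remaining arrays, against 12.4% to 14.6% of features. With the Cy3 signs changed, 2 glycolysis and 0 other hypoxia genes lay below 0 on all 4 arrays, against 8.5% of features. A gene on 1 side of 0 on all 4 arrays as deposited cannot be so after that change. These counts, here and in the lists below, therefore do not weigh the readings of the signs.

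**Figure D1:**
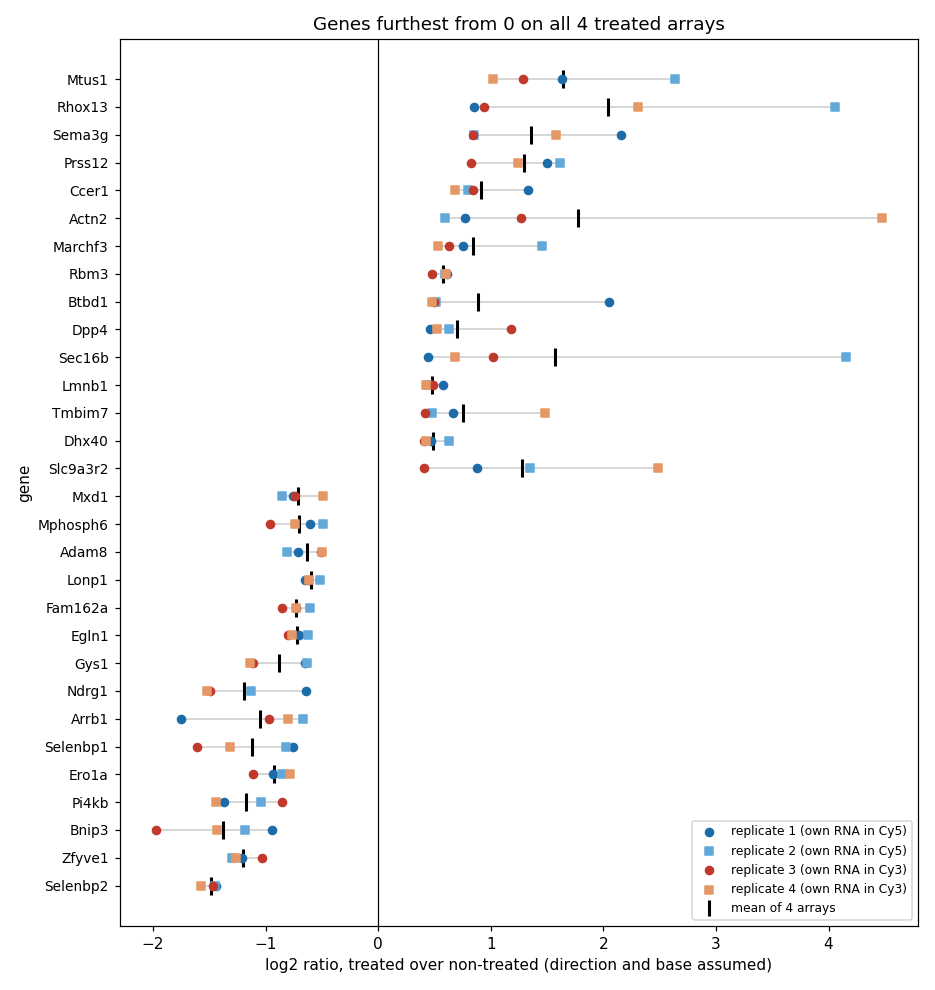
Log2 ratio of treated over non-treated RNA (horizontal axis, direction and base assumed) for the 15 named genes highest and the 15 lowest on every treated array. Circles and squares are single arrays, blue with the own RNA in Cy5 and red or orange with it in Cy3, and black bars are means of 4 arrays. The lowest genes had SDs of 0.0558 to 0.484 and the highest 0.0624 to 1.82, with single far values for Rhox13, Actn2 and Sec16b.

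Cholesterol is built from acetyl units through mevalonate under the control of the factor Srebf2. In this list 7 of 16 members lay below 0 on all 4 arrays and 2 above, beside 7.59% and 6.48% of features. Its median was -0.16, and limma called 0. Hmgcs1, which makes the mevalonate precursor, had -0.12, -0.86, -0.96 and -0.73, lowest on replicate 3. Fdps, the farnesyl diphosphate synthase, had -0.43, -0.62, -0.57 and -0.46. Mvd, a decarboxylase of the mevalonate pathway, had -0.41, -0.26, -0.65 and -0.49. Fdps and Mvd were low at a similar size on every array. Of the later enzymes, Fdft1 at -0.39 ± 0.183, Cyp51 at -0.38 ± 0.178 and Dhcr7 at -0.40 ± 0.131 were low as well (SD, n = 4 each). Sqle, Msmo1, Sc5d and Ebp did not keep to 1 side, with means of -0.068, -0.12, -0.15 and 0.0245. Srebf2 itself had -0.22, -0.47, -0.39 and -0.32. The members above 0 were Pmvk, a kinase of the same pathway, at 0.23 ± 0.173 and Tm7sf2, a sterol reductase, at 0.41 ± 0.267 (SD, n = 4 each). The median was lower, -0.28 to -0.21, without any 1 array, and with the Cy3 signs changed it was 0.036.

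In fatty acid synthesis and desaturation, 4 of 15 members lay below 0 on every array and 0 above, beside 7.59% and 6.48% of features. The list median was -0.13. The desaturase Scd2 had -0.39, -0.47, -0.72 and -0.63. The carboxylase Acaca, which starts the pathway, was measured on 3 arrays and had -1.48, -0.55 and -0.65 on replicates 1, 3 and 4. Both genes were low wherever measured, while the fatty acid synthase Fasn ran between -0.48 and 0.38. Limma called 0 of the 16 members tested.

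Interleukin-3 acts on these cells through a receptor with a common beta chain, the kinase JAK2 and the factor STAT5, which switches on feedback inhibitors and survival genes. Among known targets of interleukin-3 and STAT5, 8 of 23 lay below 0 on all 4 arrays and 1 above, beside 7.59% and 6.48% of features. Their median was -0.05, with 0 called by limma. Cish, a feedback inhibitor of the receptor, had -0.63, -0.24, -0.49 and -0.68. The survival factor Mcl1 had -0.54, -0.40, -0.51 and -0.25, and the kinase Pim1 -0.39, -0.14, -0.42 and -0.35. Ier3, an early response gene, had -0.59, -0.27, -0.68 and -0.80. For these targets replicate 2 was nearest to 0 except for Mcl1. The beta chain gene Csf2rb had -0.23, -0.33, -0.63 and -0.30 and its near-identical copy Csf2rb2 -0.47, -0.13, -0.47 and -0.45. The probes may not tell these copies apart, and both count among the 8 members below 0. The survival gene Bcl2l1 was the member above 0, at 0.20 ± 0.169 (SD, n = 4). Socs2, Stat5a and Ccnd2 had means of -0.0064, -0.0050 and -0.0040. With the Cy3 signs changed, 0 members lay below 0 on all 4 arrays, against 8.5% of features.

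The unfolded protein response raises chaperones when folding in the endoplasmic reticulum fails, and a related pathway answers to lack of amino acids. In this list 10 of 26 members lay below 0 on all 4 arrays and 3 above, beside 7.59% and 6.48% of features. The list median was -0.04. Limma called 0. Among chaperones of the endoplasmic reticulum, Hspa5 had -0.34, -0.48, -0.35 and -0.30 and Hsp90b1 had -0.32, -0.42, -0.48 and -0.27. Xbp1, a factor of this response, stood at -0.26 ± 0.154 and Atf4, the factor of amino acid stress, at -0.32 ± 0.274 (SD, n = 4 each). Asns, the asparagine synthetase and a target of Atf4, lay on the other side with 0.77, 0.30, 0.54 and 1.08. The serine enzymes Phgdh and Psph, at 0.060 and 0.028, did not keep to 1 side of 0. With the Cy3 signs changed, 0 members of the list lay below 0 on all 4 arrays, against 8.5% of features.

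**Figure D2:**
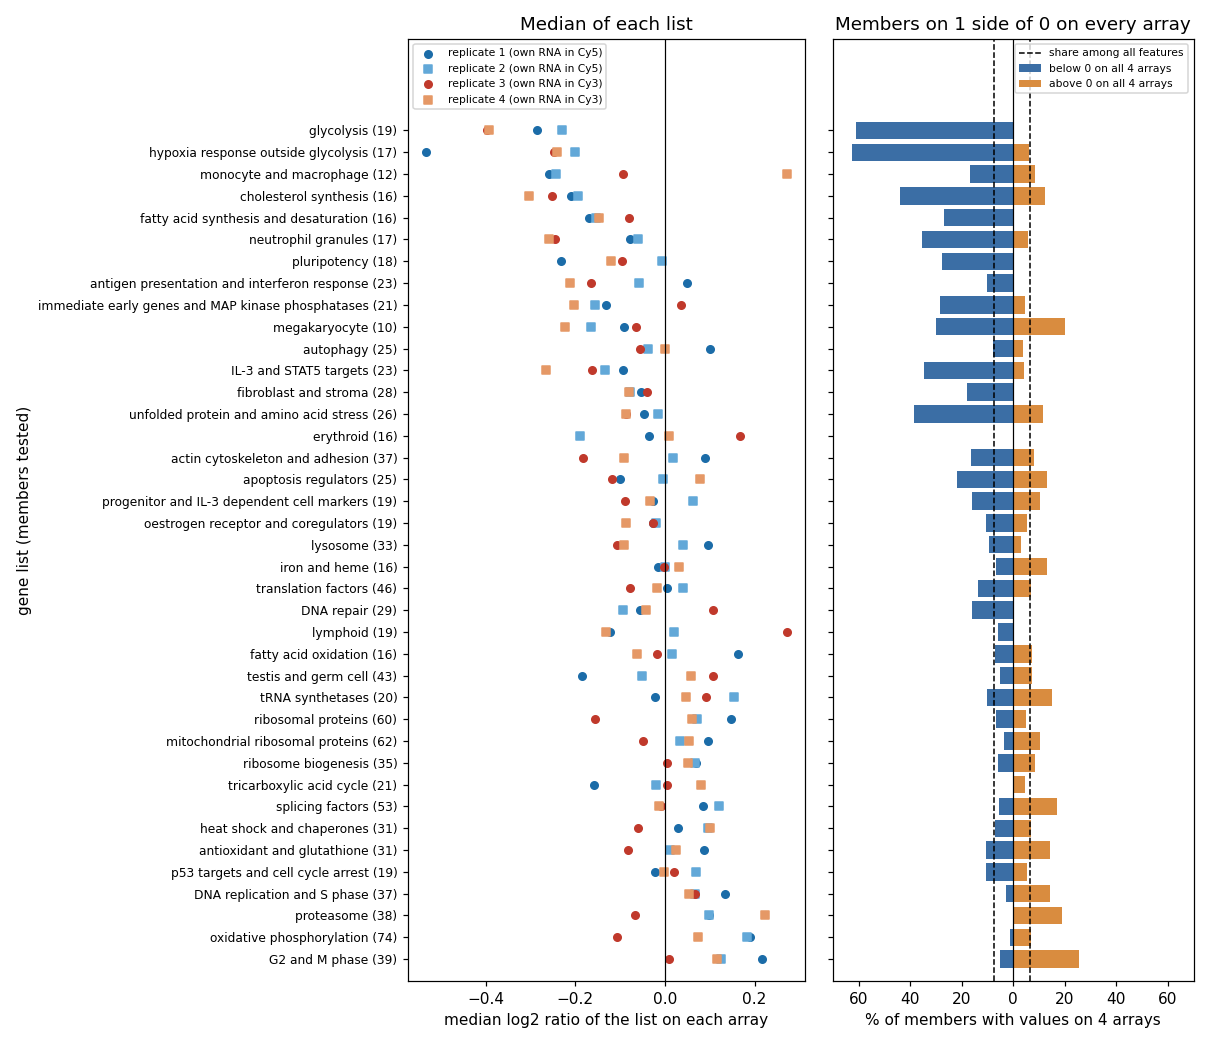
Gene lists with at least 10 members measured on all 4 treated arrays. Left, median log2 ratio of each list on each array (blue, own RNA in Cy5; red and orange, own RNA in Cy3). Right, share of members below 0 (blue bars) and above 0 (orange bars) on all 4 arrays, with dashed lines at the shares of all features, 7.59% and 6.48%. Glycolysis and hypoxia response have the largest shares below 0, and G2 and M phase has the largest share above.

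Among the remaining low genes, Zfyve1, a lipid-binding protein of membranes where autophagosomes form, had -1.21, -1.30, -1.03 and -1.26 (limma adjusted p = 0.395). Pi4kb, a lipid kinase of the Golgi, had -1.37, -1.04, -0.85 and -1.44. Arrb1, a beta-arrestin that turns off receptors, had -1.75, -0.67, -0.97 and -0.80, lowest on replicate 1. Zfyve1 and Pi4kb were low at a similar size in both orientations. The MYC antagonist Mxd1 had -0.75, -0.85, -0.74 and -0.49. Adam8, a metalloprotease of leukocytes, had -0.71, -0.81, -0.50 and -0.50, and the mitochondrial protease Lonp1 had -0.65, -0.52, -0.62 and -0.61. Mphosph6, a cofactor of the RNA exosome, completed the 15 with values between -0.96 and -0.49.

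The highest genes were more scattered, with a median SD of 0.493 against 0.153 for the lowest. Rhox13, a homeobox gene of the germ line, had 0.85, 4.06, 0.94 and 2.31. Mtus1, a microtubule-associated protein, had 1.63, 2.64, 1.29 and 1.02. Prss12, a secreted serine protease, had 1.498, 1.62, 0.83 and 1.24. Mtus1 and Prss12 lay above 0.8 on every array, while Rhox13 was highest on replicates 2 and 4. Sema3g, a secreted semaphorin, had 2.16, 0.85, 0.85 and 1.58. Actn2, a muscle alpha-actinin, had 0.77, 0.59, 1.26 and 4.48, and Sec16b, of the exit sites of the endoplasmic reticulum, had 0.44, 4.15, 1.02 and 0.68. For both, 1 array made most of the mean. Genes with little spread were Rbm3, an RNA-binding protein known from cold shock, with 0.61, 0.59, 0.48 and 0.61, and the nuclear lamin Lmnb1 with 0.58, 0.44, 0.48 and 0.42. The helicase Dhx40 had 0.47, 0.63, 0.41 and 0.42. Ccer1, Marchf3, Btbd1, Dpp4, Tmbim7 and Slc9a3r2 completed the 15, with means of 0.70 to 1.28. Limma's adjusted p was 0.906 for all 15.

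Cells divide through G2 and M phase, when chromosomes condense and separate. Of 39 genes of these phases, 10 (25.6%) lay above 0 on all 4 arrays and 2 below, beside 6.48% and 7.59% of features, with a median of 0.15. Limma called 0. Smc4 and Smc2, condensin subunits that compact chromosomes, had 0.37, 0.46, 0.23 and 0.37, and 0.27, 0.10, 0.40 and 0.38. The spindle protein Nusap1 had 0.15, 0.30, 0.24 and 0.22. Cdk1, the kinase that drives mitosis, had 0.46, 0.36, 0.06 and 0.13, and its partner cyclin Ccna2 averaged 0.17 ± 0.086 (SD, n = 4). The condensin subunits Ncaph, Ncapd2 and Ncapg did not keep to 1 side, with means of -0.072, -0.027 and 0.069. Smc4, Smc2 and Nusap1 were above 0 by at least 0.1 on every array, while Cdk1 came close to 0 on replicate 3. The phosphatase Cdc25b, which activates that kinase, lay below 0 with -0.42, -0.43, -0.48 and -0.34. Without 1 array at a time, 12 to 14 members lay above 0 on the rest, against 12.2% to 14.3% of features. With the Cy3 signs changed 6 lay above 0 on all 4 arrays, against 8.07% of features, and the median was 0.016.

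Of the proteasome, which degrades tagged proteins, 7 of 37 members lay above 0 on all 4 arrays and 0 below, beside 6.48% and 7.59% of features. The list median was 0.09. The activator subunits Psme1 and Psme2 had 1.80, 0.15, 0.54 and 0.77, and 0.22, 0.10, 0.32 and 0.51. Psmb8, an immunoproteasome subunit measured on 3 arrays, had -0.076, -3.57 and -1.31 on replicates 1, 3 and 4. Oxidative phosphorylation had 59 of 74 means above 0, beside 8293 of 15915 for all features. Only 5 of 73 members lay above 0 on all 4 arrays, a share of 6.85% beside 6.48% of features. Atp5k, a subunit of ATP synthase, had 0.16, 0.53, 0.42 and 0.44. Replicate 3 decided both counts. Without it 20 of 37 proteasome and 29 of 73 oxidative phosphorylation genes lay above 0 on the other arrays, against 13.3% of features. Ribosomal proteins moved likewise, with 3 of 60 above 0 on all 4 arrays and 25 of 60 without replicate 3. Limma called 0 of any of these lists.

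**Figure D3:**
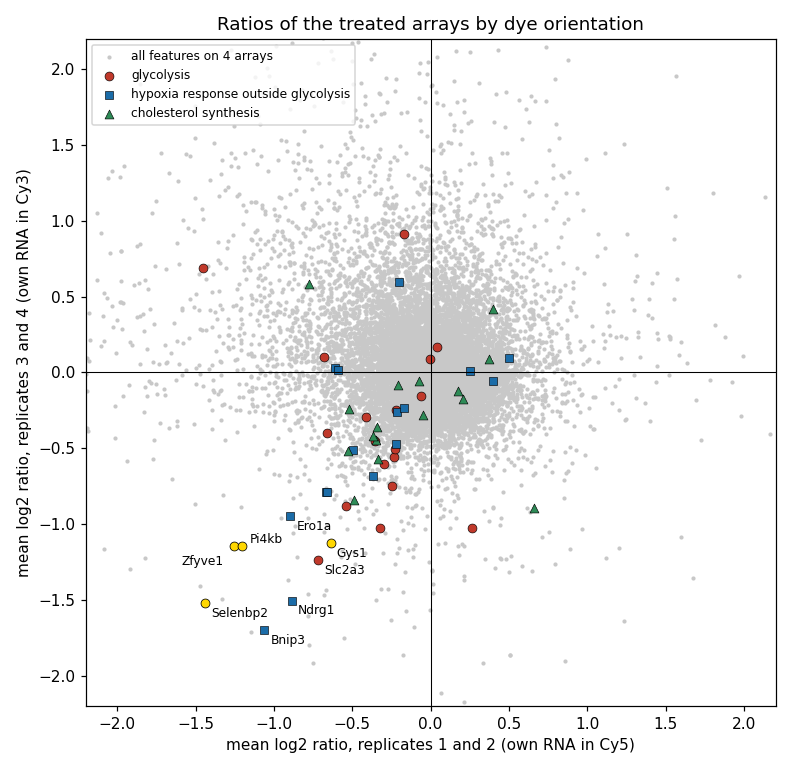
Mean log2 ratio of replicates 1 and 2 (own RNA in Cy5, horizontal) against that of replicates 3 and 4 (own RNA in Cy3, vertical) for features with values on 4 arrays, with 3 gene lists coloured and single low genes in yellow. The lower left holds most glycolysis and hypoxia genes. Of 15168 features, 100 lie outside the plotted range of 2.2 in size.

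Markers of blood lineages and of other cell types were set beside these values. Ratios carry no level, so whether the markers were present at all could not be read from them, and Kit was not among the tested features. Fewer cells of a type and less RNA per cell cannot be told apart in such bulk RNA. Of 19 tested markers of progenitors and interleukin-3 dependent cells, 3 lay below 0 on all 4 arrays and 2 above, with a median of -0.0081. Of all features, 7.59% lay below 0 on all 4 arrays and 6.48% above. The receptor chain Il3ra averaged -0.049 ± 0.143 (SD, n = 4). The members above 0 were the progenitor factors Tal1 and Erg, at 0.17 ± 0.114 and 0.27 ± 0.188 (SD, n = 4 each). Those below 0 included the beta chain genes Csf2rb and Csf2rb2, at -0.37 ± 0.177 and -0.38 ± 0.164 (SD, n = 4 each). Neutrophil granule genes had 6 of 17 members below and 1 above, with a median of -0.11 and array medians between -0.26 and -0.060. The elastase Elane had -0.51, -0.16, -0.60 and -0.33, S100a9 -0.46, -0.25, -0.50 and -0.37 and the collagenase Mmp8 -0.27, -0.33, -0.52 and -0.25. S100a8, the partner of S100a9 in calprotectin, stood on the other side with 0.32, 0.12, 0.38 and 0.25. With the Cy3 signs changed, 0 of the neutrophil genes lay below 0 on all 4 arrays, against 8.5% of features.

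Of the erythroid list, 0 of 16 members lay on 1 side on all 4 arrays, and the erythroid factor Klf1 had -1.15, -0.58, 0.39 and -0.76. The lymphoid list had 1 of 17 below and 0 above. For this list and those that follow, the shares of all features were 7.59% below and 6.48% above. Megakaryocyte genes split, with 3 of 10 below and 2 above. Gp5, a platelet glycoprotein, had 1.12, 0.45, 1.96 and 0.21, and Treml1, a receptor of platelets, had -0.27, -0.40, -0.39 and -0.36. The pluripotency list had 5 of 18 below and 0 above, among them Fgf4 with -0.36, -0.42, -0.14 and -0.34 and Klf2 with -0.31, -0.38, -0.20 and -0.41. Fibroblast genes had 5 of 28 below and 0 above. Of testis and germ cell genes, 2 of 40 lay below and 3 above, near the shares of all features, although Rhox13 and the linker histone H1f7 (1.83, 2.74, 0.22 and 1.24) were high. Limma called 0 members of any of these lists. The part of other cell types in the results above was not tested. Esr1, the oestrogen receptor that binds tamoxifen, had -0.17, -0.34, 0.18 and -0.045, on both sides of 0.

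Some genes had opposite signs in the dye orientations. Gimap6, a lymphoid GTPase, had -1.76 and -2.57 on the Cy5 arrays and 4.46 and 4.25 on the Cy3 arrays, so its mean of 1.09 describes no array. Ftcd, a folate enzyme, had -1.38 and -2.33 on the Cy5 arrays and 1.495 and 2.30 on the Cy3 arrays. Lrrcc1, Nxt1 and Asprv1 were split the same way with every value over 1.2 in size. The opposite split was smaller: Cgas, the sensor of cytosolic DNA, had 0.35 and 0.64 on the Cy5 arrays and -0.68 and -0.46 on the Cy3 arrays. Limma's contrast of the Cy5 with the Cy3 arrays called 0 of 15915 features (0.00%), with 1139 at an unadjusted p under 0.05 and a smallest adjusted p of 0.196. The part of the dye in these values was not tested.

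The time course offers other arrays, with another reference RNA, on which the same genes can be read. All 15 of the lowest genes were below 0 in the mean at 3 h, where 49.98% of features were, with a median of -0.44. All 15 stayed below 0 at 3 h without any 1 array. At 7 h 12 of the 15 were below 0, where 50.48% of features were. On 7 h replicate 4, whose repeated extreme value is positive although its own RNA is labelled as in Cy3, all 15 were above 0. Without that array all 15 means at 7 h were below 0, with a median of -0.52 in place of -0.22, and Selenbp2 stood at -0.75 in place of -0.25. At 12 h 14 of the 15 were below 0, where 48.96% of features were, and 11 to 14 without 1 array. At 23 h 10 of the 15 were below 0, where 49.28% of features were. The count was 12 without replicate 3 and 6 without replicate 4. Of the 15 highest genes, 11 were above 0 at 3 h, where 49.99% of features were, with a median of 0.041. Bnip3, at -1.38 in treated cells, had -1.09, -1.01, -1.74 and -1.69 on the 3 h arrays. Selenbp2, at -1.48 in treated cells, had -0.58, -1.02, -1.29 and -1.33 at 3 h, and Ndrg1, at -1.19, had -1.20, -0.86, -1.29 and -1.25. All 12 of these values at 3 h were below 0. At 23 h the means were -0.25 for Bnip3 and -0.039 for Ndrg1, and without 23 h replicate 4 they were -0.19 and 0.0080. Other low genes were nearer to 0 at 3 h. Pi4kb, at -1.18 in treated cells, averaged -0.21 at 3 h, and Egln1, at -0.72, averaged -0.26. Bnip3l, at -0.29 in treated cells, averaged 0.54 at 3 h and 0.90 at 23 h. Among glycolysis genes, Pgm1 stood at -0.67 in treated cells and -0.71 at 3 h, and Hk2 at -0.71 in treated cells and -0.19 at 3 h.

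**Figure D4:**
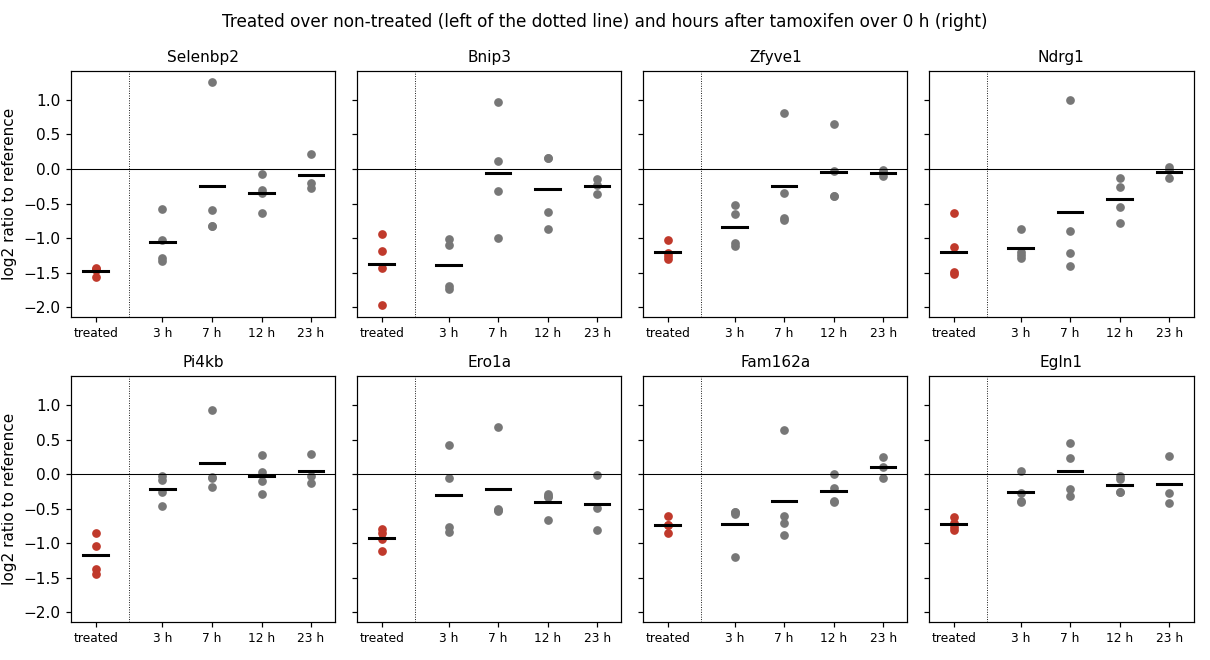
Log2 ratio of 8 low genes on each treated array (red, against non-treated cells) and on each array at 3, 7, 12 and 23 h after tamoxifen (grey, against cells at 0 h), with black bars for the group means. Bnip3, Ndrg1 and Fam162a have like means in treated cells and at 3 h, while the mean ratio of Pi4kb is lower in treated cells than at any time shown.

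A contrast of the treated group with the mean of the time points, each group weighted by its own spread, called 3 of 15807 features (0.0190%). All 3 had a higher ratio in the treated group, although the reference RNAs differ. Limma's unadjusted p was under 0.05 for 976 (6.17%), 520 higher (3.29%) and 456 lower (2.88%). The called features were Sema3g, with a difference of 1.40 (SE 0.218; limma adjusted p = 0.0447) between a mean of 1.36 in treated cells and -0.041 in the time course, and probes 10500 and 10614, which carry no gene name here. Probe 10500 had 2.00, 2.47, 4.10 and 1.24 on the treated arrays and a time-course mean of -0.016 (difference 2.47, limma adjusted p = 0.00632). Probe 10614 had 1.80, 1.89 and 2.34 on replicates 1 to 3 and -0.13 in the time course (difference 2.17, limma adjusted p = 0.00632). Both probes were named after their values were seen. Set against the spread of the treated arrays alone, 0 were called, and Sema3g also lost its call without treated replicate 1 or 4 (limma adjusted p = 0.0811 and 0.116), with all arrays scaled to 1 spread (0.0871), or without 7 h replicate 4 and 23 h replicate 3 (0.101). These arrays were in doubt for the sign of an extreme value and for a deposited median of 0.233. Below the time course, Pi4kb had the difference of -1.16 (limma adjusted p = 0.346), and Tln1, which links integrins to actin, had -0.37, -0.82, -0.43 and -0.54 in treated cells and a time-course mean of -0.0011.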

How the data were processed

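Per the labels' protocols, cDNA made from total RNA received the dyes Cy3 and Cy5 by indirect labelling. The authors deposited 1 log ratio per spot, read here as log2. The sources used here do not give its base, numerator, normalization or scanner settings. Column medians of the treated arrays were 0.006, -0.012, 0.014 and 0.024. Values over 10 in size were set to missing and each array was centred on its median. The platform annotation gave 1 symbol to 13891 of 20205 probes, several to 5 and none to 6309. RefSeq gene IDs matched 13855, and 0 symbols changed. Probes of 1 gene were averaged (2969 of 9834 genes had more than 1), which gave 16148 features. Those with values on at least 3 of the 4 treated arrays were tested, 15168 on 4 arrays and 747 on 3. Spot intensities were not used, and precision is limited by how many arrays there are.

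The mean ratio was tested against 0 with limma 3.58.1 (lmFit, eBayes) in R 4.3.3 on the 4 treated arrays, with Benjamini-Hochberg adjustment over all features and a threshold of 0.05. The contrast with the time course used all 19 arrays, a dye term and a variance for each group. On simulated arrays this contrast also called unchanged features where the spread varied by feature. Members and the 41 gene lists were chosen with earlier results of these data known, so a list's position is not independent evidence. Named genes were the 15 highest and 15 lowest by the array nearest to 0 among those on 1 side on all 4 arrays, the 10 with the smallest p, the outermost members of each list on 1 side on all 4 arrays, the 5 of each kind most opposed by dye, the 5 in each direction with the smallest p in the contrast with the time course, and checks of the cells. Other list members were named after their values were seen. Replicate numbers go with the dye, so a pairing by number and the dye cannot be told apart. Alternatives changed signs, centring, scaling, filters, moderation, probe averaging and the arrays used.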

Additional observations from a re-analysis of the deposited data

Results flagged for a closer look

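In 12 of 154 named genes and 2 of 41 list medians, 1 of the 4 treated arrays lay far from the others. The rule marks about 1 in 20 by chance among normally spread values. The named genes were mostly picked by these same values, so the counts cannot be weighed against that rate. On replicate 1 the genes so marked were Btbd1, a BTB-domain protein, at 2.05 (others 0.47 to 0.52), the cell cycle inhibitor Cdkn2c at 1.38 (others 0.13 to 0.27), and the platelet adhesion protein Vwf at 0.377 (others 0.018 to 0.060). The splicing factor Srsf9 stood at -2.05 (others -0.44 to -0.21), the desaturase Fads1 at -0.91 (others -0.14 to -0.070), Utp4, of ribosome biogenesis, at -0.42 (others -0.081 to -0.044), and the DNA repair gene Fanca at -0.021 (others -0.37 to -0.31). On replicate 2, Sec16b stood at 4.15 (others 0.44 to 1.02) and Csf2rb2 at -0.13 (others -0.47 to -0.45). On replicate 3, the phosphatase Cdc25a stood at 1.43 (others 0.068 to 0.22). On replicate 4, the transferase Gsto1 stood at 0.437 (others 0.19 to 0.23) and the ribosomal protein Rpl7 at 0.356 (others 0.054 to 0.094). The median of the hypoxia list was -0.53 on replicate 1, and that of the list of oestrogen receptor and coregulators was -0.087 on replicate 4.

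Differences from the time course passed limma's test for 3 features: 2.47 for probe 10500, 2.17 for probe 10614 and 1.40 for Sema3g. All were higher ratios in the treated group, whose reference RNA differs from that of the time course. Against the spread of the treated arrays alone 0 features were called. The value for probe 10500 took the opposite sign with the Cy3 signs changed.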

How the results depend on the processing

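With the spread pooled over all 19 arrays in place of the 4 treated arrays, limma called 773 features. Under every other alternative tried for treated against non-treated cells the count was 0, with 607 to 1139 features at an unadjusted p under 0.05, the Cy3 signs changed, single arrays left out, other scalings and other filters included. Limma's contrast of Cy5 with Cy3 arrays also gave 0 under its alternatives. The contrast with the time course, 3 features, gave 29 with the Cy3 signs changed, 155 with equal weights, 2 without the doubted arrays (7 h replicate 4 and 23 h replicate 3), 2 with arrays scaled to the same spread, 9 to 39 without 1 treated array, 3 with replicate number as a replicate block in place of the dye term, and 0 against the spread of the treated arrays alone, an alternative chosen after seeing the data. Its value for probe 10500 turned to -0.105 with the Cy3 signs changed. With those signs changed the list medians were 0.046 for glycolysis, 0.060 for hypoxia response, 0.036 for cholesterol synthesis and 0.016 for G2 and M phase. The cholesterol median was -0.28 to -0.21 without 1 array (-0.16 in full), and 78 of 154 named genes took the opposite sign with the Cy3 signs changed. Genes chosen for 1 sign on all arrays under the deposited signs are set against each other by that change, so it does not weigh the readings. Leaving out single time-course arrays was also added after seeing the data. The causes of the other moves were not tested.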
